A study of Mus musculus with 12 samples.

Results

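The immunity-related GTPases (IRGs) examined here are Irgm1, Irgm2, Igtp, Ifi47, Tgtp1, Tgtp2, Iigp1 and Gm4951. They were taken by gene symbol from the deposited single-cell count table, where they make up 8 of 27457 gene rows, 26938 of which held a count. The table describes 93126 cells from 48 tumors of MC38, a colon carcinoma line of C57BL/6J (B6) origin, grown in female mice of 8 host strains. Hosts were B6 or the F1 offspring of B6 and a Collaborative Cross (CC) strain, a recombinant inbred line bred from several founder strains, so all F1 animals carried a B6 copy of every member beside a CC copy. Tumor cells were injected at an age of 8 to 12 weeks. Animals later received a single 200 µg dose, either of an isotype control or of an anti-PD-1 antibody (aPD1), when tumors measured 75 to 110 mm3, and tumors were collected 48 h later. Each of 12 pools held 4 hashtagged tumors, an isotype and an aPD1 tumor of each of 2 strains, and 90% CD45+ cells were mixed with 10% CD45- cells in the sort.

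The study classed CC001, CC002 and CC075 F1 hosts as responders and CC036, CC079 and CC080 F1 hosts as non-responders, from the growth of tumors in other animals. Responder strains gave 10 isotype and 10 aPD1 tumors, non-responder strains gave 9 and 9, and 10 tumors of B6 and CC007 F1 hosts had no class. Since isotype and aPD1 tumors never shared a hashtag, an effect of the hashtag and an effect of treatment cannot be told apart. Each class is made of 3 strains, and tumors of one strain share a genotype, so p-values over tumors measure the spread between tumors and not between genotypes.

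IRGs are GTPases of mouse cells that interferon gamma (IFN-γ) strongly induces. The regulatory members Irgm1, Irgm2 and Igtp (also called Irgm3) sit on the cell's own membranes and hold the effector members in an inactive state there. The effectors Iigp1 (Irga6), Tgtp1 and Tgtp2 (Irgb6) and Ifi47 (Irgd) collect on the vacuoles of intracellular pathogens such as Toxoplasma and break them open. Promoters of interferon-induced genes often carry a gamma-activated site (GAS) or an interferon-stimulated response element (ISRE), the DNA motifs through which interferon signals reach them.

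Promoters are shown because many members have the same pair of interferon motifs in them. In RefSeq promoters of GRCm38.p6, found for the 6 members on chromosome 11, the 250 bases before the start site were searched on both strands for GAS (TTCNNNGAA) and for an ISRE core, written here as GAAA, any 2 bases, GAAA. Of 27025 genes, 7.18% had a GAS match and 3.04% an ISRE core match, and 0.389% had both. Among the members, Irgm2, Igtp, Tgtp1 and Tgtp2 had both, Irgm1 had overlapping ISRE core matches alone, and Ifi47 had neither in this window. The stretches are written 5′ to 3′ on the strand of the gene, with the motif letters in capitals.
Tgtp1, chr11:48992313-48992342, minus strand: ctagccatTTCCAGGAAtcGAAACTGAAAc
Tgtp2, chr11:49064272-49064301, minus strand: ctagccatTTCCAGGAAtcGAAACCGAAAc
Irgm2, chr11:58214894-58214923, plus strand: ctagccatTTCCAGGAActGAAACTGAAAg
Igtp, chr11:58199503-58199532, plus strand: ctagccatTTCTAGGAActGAAACTGAAAg
Irgm1, chr11:48871434-48871458, minus strand: tgtttcaaGAAATAGAAACCGAAAc

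In the first 4 promoters the ISRE core began 11 bases after the first base of the GAS, and the 8 bases before the GAS were identical. Only 5 of the 27025 promoters (0.0185%) had this arrangement on the strand of the gene, and the fifth was that of Gm12185, another gene of the IRG family. The spacing was chosen after the members' promoters had been seen, so this share describes these promoters and is no test. The GAS lay 88 bases before the RefSeq start site in Tgtp1, 81 in Tgtp2, 75 in Irgm2 and 45 in Igtp. For Irgm2 and Tgtp2 the bases after that start site were found in no GENCODE vM21 transcript of the gene. By the GENCODE positions given below, the Irgm2, Tgtp1 and Irgm1 stretches lie inside their genes, so the 2 annotations place these starts differently. The Irgm1 stretch overlaps an exon of the GENCODE vM21 annotation, and the other 4 stretches overlap none of their gene's exons. A match to these letters does not show that a factor binds there.

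In GENCODE vM21 (GRCm38) all members are protein-coding genes, and they stand in clusters. Irgm1 (48861968 to 48871683, minus strand), Tgtp1 (48985327 to 48994172, minus), Tgtp2 (49057194 to 49064206, minus) and Ifi47 (49076587 to 49096974, plus) neighbour each other on chromosome 11. Igtp (58199556 to 58207591, plus) and Irgm2 (58199618 to 58222782, plus) overlap further along that chromosome. Gm4951 (60212080 to 60247820, plus) and Iigp1 (60376027 to 60392634, plus) are on chromosome 18.

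Sequence shared between members limits what their counts can separate. Of all windows of 90 bases, the length of the sequenced transcript read, in Tgtp1 transcripts, 74.8% also occurred in transcripts of another gene, and for Tgtp2 78.6% did, nearly all of them shared between these 2 genes. Values of Tgtp1 and Tgtp2 therefore rest on the minority of positions that differ, and their split is uncertain. Irgm2 and Igtp share 162 exon bases, which left 3.57% of Irgm2 windows and 6.13% of Igtp windows shared. No window of Irgm1, Iigp1 or Gm4951 was shared, and 0.958% of Ifi47 windows were.

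Tumors held 53 to 3082 cells (median 1913.5), with a median of 3333.5 unique molecular identifiers (UMIs, each marking one captured transcript) per cell. The tumor of 53 cells, CC007 F1 with aPD1 in pool 6, gave only 30 macrophages and 46554 macrophage UMIs, and the largest macrophage sum held 11778425. The clusters carry numbers without names and were named from marker lists, which gave 10 monocyte/macrophage clusters (68059 cells, called macrophages below) and 9 T/NK clusters (12021 cells). A cell barcode of one pool also occurred in another pool for 10176 cells. T/NK markers were low in the macrophage sums of counts per tumor: the 11 T/NK markers together had 2.99 to 62.5 CPM (counts scaled to a common library total), against 10814 to 33569 CPM for the macrophage markers, and none of the 11 was at 0 over all macrophages.

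Macrophages held most of the members' transcripts. Between 62.8% (Tgtp1) and 85.7% (Gm4951) of each member's UMIs came from macrophages, which gave 72.7% of all UMIs. By gene, UMIs numbered 27947 for Irgm1, 9776 for Irgm2, 21840 for Igtp, 46554 for Ifi47, 2129 for Tgtp1, 7883 for Tgtp2, 37076 for Iigp1 and 14706 for Gm4951. A UMI of Ifi47 was seen in 27.5% of cells and one of Tgtp1 in 1.98%, so Tgtp1 values carry the widest counting error. In sums over cells, fewer expressing cells and less RNA per cell cannot be told apart.

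Macrophage cluster 21, which is led by the interferon-stimulated genes Ifit3, Rsad2 and Ifit2, had more of all 8 members than the other macrophages. Ifi47 stood at 411.5 CPM in cluster 21, followed by 275.6 CPM in granulocytic cluster 16 and 252.2 CPM in cluster 4, whose leading genes include the monocyte genes Ace and Plac8. Over tumors, the Ifi47 means were 413.6 ± 83.2 CPM in cluster 21 (SD, n = 45), 452.5 ± 312.4 CPM in cluster 16 (SD, n = 7) and 271.4 ± 115.6 CPM in cluster 4 (SD, n = 44), so clusters 21 and 16 change places and neighbours overlap. The ratio of cluster 21 to the other macrophages ran from 2.71-fold for Gm4951 to 4.90-fold for Tgtp1. Cluster 21 was higher in 45 of 45 tumors for 7 members and in 42 for Tgtp1. The authors' clusters were made from the same cells and genes, so these levels are a description.

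The members did not share one order over cell types. In the sums, the regulator Irgm1 was highest in clusters 21 (206.9 CPM), 16 (161.8 CPM) and 4 (141.2 CPM), while over tumors its means were 213.9 ± 53.8 CPM in cluster 21 (SD, n = 45) and 263.9 ± 254.7 CPM in cluster 16 (SD, n = 7), which overlap. Irgm2 was highest in granulocytic cluster 16, at 126.3 CPM against 65.9 CPM in cluster 21, but cluster 16 rests on 529 shallow cells (median 815 UMIs) and 71 UMIs of Irgm2. Igtp was about level in clusters 16 (161.8 CPM) and 21 (159.0 CPM), followed by the Foxp3 T cell cluster 8 (130.2 CPM). Iigp1 was instead highest in cluster 22, which is led by Igfbp7, Rgs5 and Col1a1 and was left without a name (319.0 CPM in the sum, 257.4 ± 190.3 CPM over 9 tumors), next to cluster 21 (255.1 CPM, 285.0 ± 173.9 over 45 tumors), and these 2 clusters did not differ beyond their spread. Gm4951 was highest in macrophage clusters 19 (107.2 CPM) and 21 (103.0 CPM) and low in monocyte cluster 4 (11.8 CPM) and in granulocytic cells (8.9 CPM). Tgtp1 stood at 19.7 CPM in migratory dendritic cells (DCs) and 4.44 CPM in macrophages, while Tgtp2 stood at 15.98 and 19.9 CPM.

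**Figure D1:**
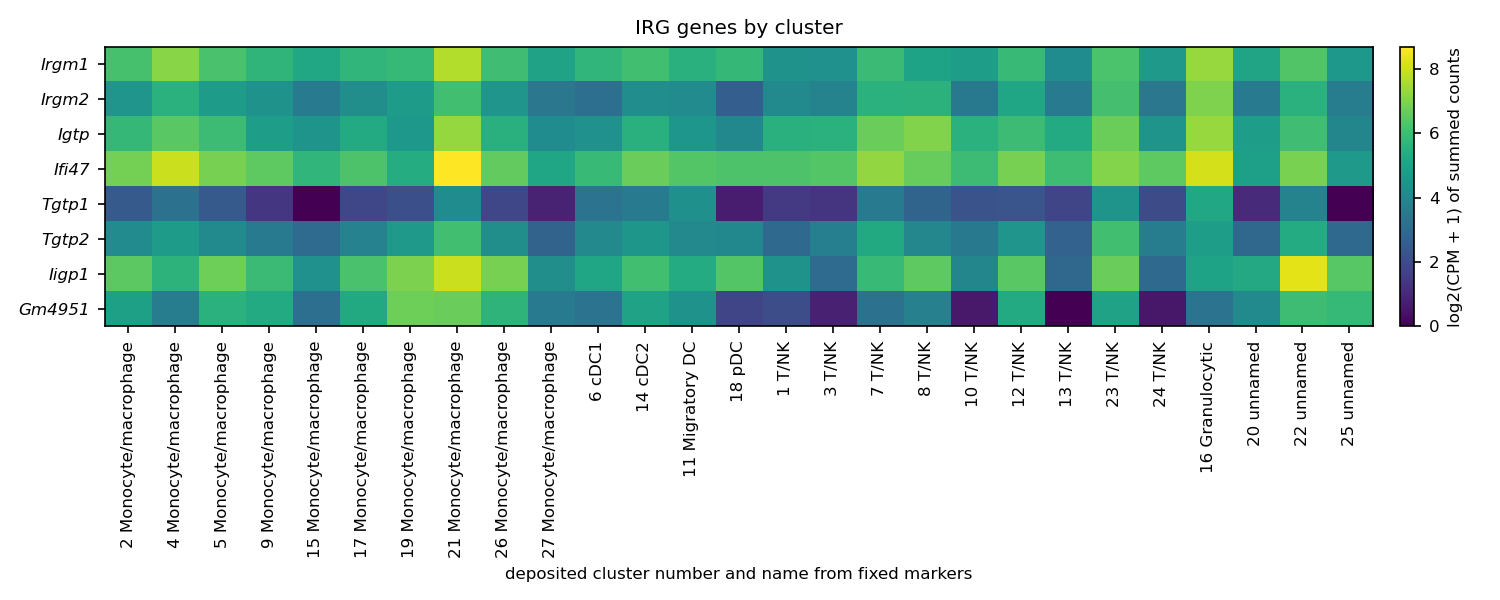
Level of each IRG gene (rows) in each deposited cluster (columns), as log2(CPM + 1) of counts summed over all cells of the cluster. Cluster 21 is bright for every gene, the unnamed cluster 22 is brightest for Iigp1, and the T/NK clusters 3, 13 and 24 are darkest for Iigp1, joined by cluster 10 for Gm4951.

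T/NK clusters fell apart in the same way. Ifi47 was present in all of them (61.1 to 153.9 CPM), but Iigp1 stood at 6.6 to 7.3 CPM in cluster 13 (led by Ifng), cluster 3 (Cd8a, Pdcd1) and the NK-marker cluster 24 (Ncr1), against 91.9 CPM in the Foxp3 cluster 8 and 57.8 CPM in the Lef1 cluster 7. Gm4951 gave 0 of 1956195 UMIs in cluster 13, which allows up to 1.53 CPM by a floor of 3 counts. Counted per cell, after thinning each cell to 1000 UMIs, Ifi47 was seen in 33.0% of cluster 21 cells and 6.77% of cluster 13 cells. Iigp1 was seen in 16.6% and 0.846%, and in 0.872% of cluster 24 cells, with median depths before thinning of 3443, 2709 and 2227.5 UMIs. No level of background was estimated, so background and low expression cannot be told apart in the lowest of these Iigp1 shares.

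The first comparison asked whether macrophages of responder and non-responder strains differed in these genes. Over both treatments all 8 members had log2 fold changes above 0 in responder against non-responder macrophages, from 0.33 (Ifi47) to 1.10 (Iigp1), and 4 passed edgeR's quasi-likelihood test at an adjusted p under 0.05, where 6.57% of the 11873 genes tested did (4.09% on the higher side). These were Gm4951 (1.08 ± 0.21, SE, adjusted p = 0.00097), Iigp1 (1.10 ± 0.30, adjusted p = 0.020), Tgtp1 (0.86 ± 0.27, adjusted p = 0.043) and Igtp (0.57 ± 0.18, adjusted p = 0.049). Tgtp2 (0.65 ± 0.21), Irgm2 (0.46 ± 0.17), Irgm1 (0.37 ± 0.16) and Ifi47 (0.33 ± 0.14) had adjusted p from 0.060 to 0.17. The median over the members was 0.61, against -0.0043 over all genes tested. Scaling by library size alone left 2 members, where 7.29% of all genes passed, and turned the share of all calls that were higher from 62.3% to 39.3%. With the pool as a block, Tgtp2 passed as well (0.82 ± 0.22, adjusted p = 0.020) and 5 members passed, where 8.36% of all genes did.

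The classes were then compared within each treatment. After aPD1 all 8 members had log2 fold changes above 0 and 7 passed, where 6.44% of all genes passed (4.35% on the higher side), and the median over the members was 0.96. With library size scaling 6 passed, where 7.96% of all genes did, and the share of all calls that were higher went from 67.5% to 36.5%. Iigp1 in non-responder aPD1 tumors ran from 18.03 CPM through a median of 48.4 to 86.2 CPM, and in responder aPD1 tumors from 98.8 through 114.0 to 294.9 CPM. Every one of the 10 responder tumors stood above every one of the 9 non-responder tumors, with a log2 fold change of 1.74 ± 0.40 (adjusted p = 0.0063). Gm4951 ran from 15.5 CPM through 22.3 to 36.3 CPM in non-responder and from 38.4 through 58.7 to 113.7 CPM in responder aPD1 tumors. These groups did not overlap either, and the log2 fold change was 1.65 ± 0.26 (adjusted p = 0.00011). Such complete separation in this direction held for 33 genes, 0.278% of those tested.

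The regulators and the other effectors overlapped between classes after aPD1. Igtp ran from 30.0 through 45.1 to 51.4 CPM in non-responder and from 46.0 through 68.9 to 105.7 CPM in responder aPD1 tumors, and 9 of 10 responder tumors stood above all non-responder tumors. Its log2 fold change was 0.91 ± 0.24 (adjusted p = 0.019). Irgm1 ran from 48.2 through 59.7 to 78.0 CPM and from 69.7 through 86.0 to 130.8 CPM, with 8 of 10 responder tumors above all others (0.66 ± 0.21, adjusted p = 0.049). Irgm2 (0.79 ± 0.23, adjusted p = 0.028), Tgtp1 (1.22 ± 0.35, 0.031) and Tgtp2 (1.00 ± 0.29, 0.030) also passed. Ifi47 (0.58 ± 0.19) did not, at an adjusted p of 0.055, and only 2 of its 10 responder tumors stood above all non-responder tumors.

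In isotype tumors no member passed, where 0.278% of all genes did (33 genes, against 797 at an unadjusted p under 0.05, with 73 passing by DESeq2). No member had an unadjusted p under 0.05 there, and none passed by DESeq2. The log2 fold changes were all above 0, from 0.058 ± 0.214 for Irgm1 to 0.48 ± 0.27 for Gm4951. Iigp1 ran from 15.8 through 44.9 to 205.4 CPM in non-responder and from 47.7 through 101.8 to 227.9 CPM in responder isotype tumors, and these ranges overlap. The difference between the class effects of aPD1 and isotype tumors is the interaction given below.

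**Figure D2:**
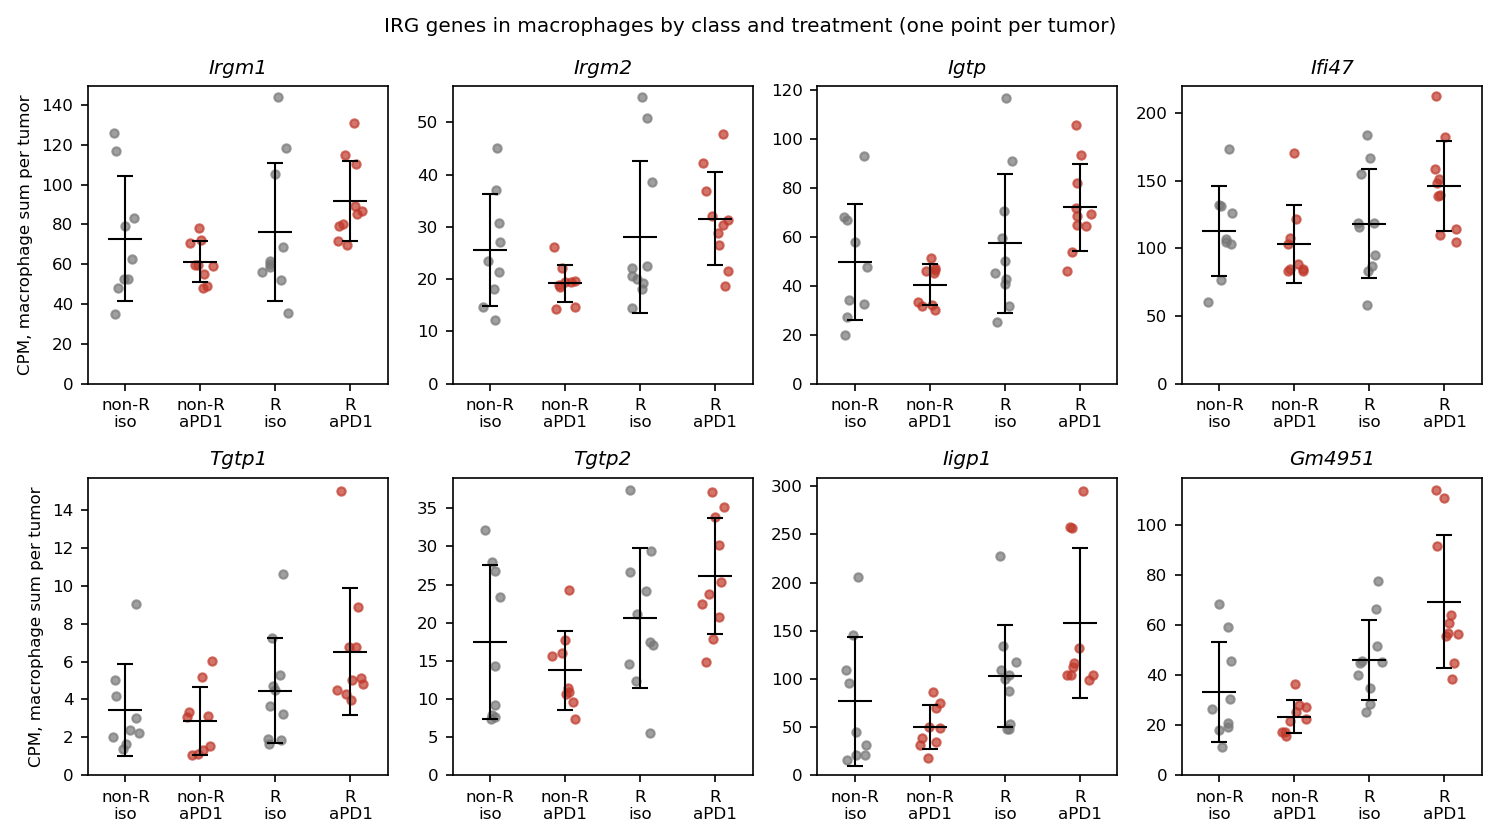
CPM of each IRG gene in the macrophage counts of each tumor (points), by class (R, responder, or non-R, non-responder) and treatment (iso, isotype), with the mean and SD as bars (n = 9 or 10). For Iigp1 and Gm4951 the 10 responder aPD1 tumors all sit above the 9 non-responder aPD1 tumors, while the isotype groups overlap for every gene.

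Single pools and strains moved these counts. Without CC075 F1 tumors, which had the highest Iigp1 mean, only Gm4951 passed, both over all tumors (6.85% of all genes) and in aPD1 tumors (2.72% of all genes). The aPD1 estimates of all 8 members stayed above 0 with any single strain left out, from 0.48 (Ifi47) up to 1.93 (Iigp1). Summing tumors per strain, which leaves 3 strains against 3, left 0 of 8 members (and 3 of all genes) past the threshold, with Gm4951 at 1.14 (adjusted p = 0.28). The log2 fold changes of all 8 members were larger there than over tumors, among them Iigp1 (1.21), Tgtp1 (0.93) and Igtp (0.65). Gm4951 in aPD1 tumors passed in all 28 fits run for that comparison, with log2 fold changes of 1.48 to 1.75. Iigp1 passed in 27 of 28, the exception being the fit without CC075 F1 tumors (1.45 to 1.98 over all fits). All 28 take the tumor as the replicate. Strain sums, pool ranges, single clusters and macrophages without T/NK marker UMIs were fitted over both treatments only. Within pools 1 to 5 alone, where 2.62% of all genes passed, no member did (Gm4951 0.95, adjusted p = 0.081, and Iigp1 0.96, adjusted p = 0.33). Within pools 8 to 12 Tgtp1 (1.504, adjusted p = 0.016) and Gm4951 (1.25, adjusted p = 0.024) passed, as did 3.43% of all genes. These pool ranges hold different strains, so strain and pool cannot be told apart between them. CC079 F1 tumors were only in pools 1 to 5, and CC036 and CC075 F1 tumors only in pools 8 to 12.

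The T/NK markers in the macrophage sums also moved with the groups. Their summed level ran from 2.99 to 9.64 CPM in non-responder aPD1 tumors and from 5.72 to 62.5 CPM in responder aPD1 tumors. Macrophages without a single T/NK marker UMI gave nearly the same differences as all macrophages (Iigp1 1.10, Gm4951 1.07, Tgtp1 0.85), with Igtp at an adjusted p of 0.058 and 3 members past the threshold, where 6.44% of all genes were. Leaving out the responder aPD1 tumor with most of these UMIs, CC075 F1 in pool 9, left 5 of the 7 members in aPD1 tumors, without Irgm1 (0.59 ± 0.21, adjusted p = 0.10) and Irgm2 (0.71 ± 0.23, 0.061), whose log2 fold changes were 0.66 and 0.79 with it. Of all genes 4.74% passed there.

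The class difference was also seen outside cluster 21. Cluster 21 made up a median of 4.65% of macrophages in responder aPD1 tumors and 6.32% in non-responder aPD1 tumors. Clusters 2, 4, 5, 9, 21 and 26 were fitted alone, and the other macrophage clusters, some of them larger than cluster 9, were not. The count of members passing was 7 of the 7 tested in cluster 26, a large cluster led by Cxcl13, Fcrls and Olfml3 (7.87% of all genes). It was 6 of 7 in cluster 5 (4.44%), 3 of 8 in cluster 2 (4.02%) and 2 of 7 in cluster 21 (1.78%). It was 0 of 6 in cluster 4 (0.473% of all genes) and 0 of 4 in cluster 9 (0.128%). In cluster 21 itself Iigp1 (1.09, adjusted p = 0.0043) and Gm4951 (0.83, adjusted p = 0.0019) were higher in responder strains. In cluster 26 Igtp was higher by 0.85 (adjusted p = 0.0023), Tgtp2 by 0.94 (0.0073) and Ifi47 by 0.54 (0.0075). These fits use fewer cells, and the cause of the different counts was not tested.

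The share of macrophages with a UMI followed the sums. After thinning to 1000 UMIs, Iigp1 was seen in 10.7% ± 4.6 of macrophages in responder aPD1 tumors (SD, n = 10) and 3.74% ± 1.46 in non-responder aPD1 tumors (SD, n = 9), with ranges of 6.91 to 18.9% and 2.04 to 6.01% that do not overlap. Unthinned the means were 23.2% and 9.30%. For Ifi47 the thinned means were 12.6% ± 2.7 and 9.66% ± 2.08, with overlapping ranges. Thinning left out 996 macrophages of responder and 619 of non-responder aPD1 tumors.

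The second comparison asked what aPD1 changed within a class, 48 h after dosing. In responder strains the log2 fold changes of aPD1 against isotype were above 0 for all 8 members, from 0.37 ± 0.18 (Irgm2) to 0.80 ± 0.33 (Tgtp1), but none passed, where 0.0253% of all genes did (3 genes, against 1488 at an unadjusted p under 0.05). All 8 had an unadjusted p under 0.05, with adjusted p from 0.23 (Gm4951) to 0.40 (Irgm2). These estimates depended on the strains, given below. With single strains left out they stayed above 0 but fell as low as 0.15 for Ifi47, 0.20 for Irgm1 and 0.25 for Tgtp2. Within a pool, the aPD1 tumor stood above the isotype tumor of the same strain in 9 of 10 pairs for Iigp1 and Gm4951, in 8 for Irgm1, Irgm2, Igtp and Tgtp1, in 7 for Tgtp2 and in 6 for Ifi47.

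In non-responder strains the log2 fold changes of aPD1 against isotype ran from -0.38 ± 0.26 (Gm4951) to -0.063 ± 0.379 (Tgtp1), and 0% of all genes passed (178 at an unadjusted p under 0.05). The aPD1 tumor was the higher one in 3 of 9 pairs for 5 members and in 4 of 9 for Tgtp1, Tgtp2 and Gm4951. The difference between the classes in the aPD1 effect ran from 0.54 ± 0.26 (Ifi47) to 1.11 ± 0.35 (Gm4951). No member passed this interaction test (adjusted p 0.33 to 0.52), where 0.00842% of all genes did, and 6 of 8 had an unadjusted p under 0.05, against 11.1% of all genes. The response to aPD1 is thus not shown to differ between the classes. Neither test gave a member past the threshold by DESeq2.

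Within single strains no member passed in any of the 8, by edgeR or DESeq2. Of all genes 0.477% passed in CC075, 0.0154% in CC001, 0.00769% in CC007 and 0% in the other F1 strains and B6. At an unadjusted p under 0.05 stood 6 of 8 members in CC001 (7.32% of all genes), 5 in CC080 (2.79% of all genes) and 1 in CC075 (14.5% of all genes). The CC001 F1 estimates were 0.59 (Irgm2) to 1.23 (Tgtp1), and aPD1 tumors were above their isotype tumors in 4 of 4 pairs for all members but Iigp1 (3 of 4). The CC080 F1 estimates were -0.50 (Ifi47) to -1.19 (Iigp1), with aPD1 above isotype in 0 of 3 pairs for Irgm1, Irgm2, Igtp and Ifi47. Strains of a class did not all move alike. In CC079 F1 hosts, also non-responders, all 8 estimates were above 0 (0.091 to 0.92), with aPD1 above isotype in 2 of 3 pairs for each member. Those of CC036 F1 were -0.52 to -0.19. Among responders, CC002 F1 estimates were 0.27 to 0.91 and CC075 F1 estimates -0.12 (Tgtp2) to 0.87 (Gm4951). One animal identifier stands on 2 CC080 F1 tumors, isotype in pool 3 and aPD1 in pool 4. Without them 3 of 8 members passed the class difference in aPD1 tumors, where 4.9% of all genes did.

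**Figure D3:**
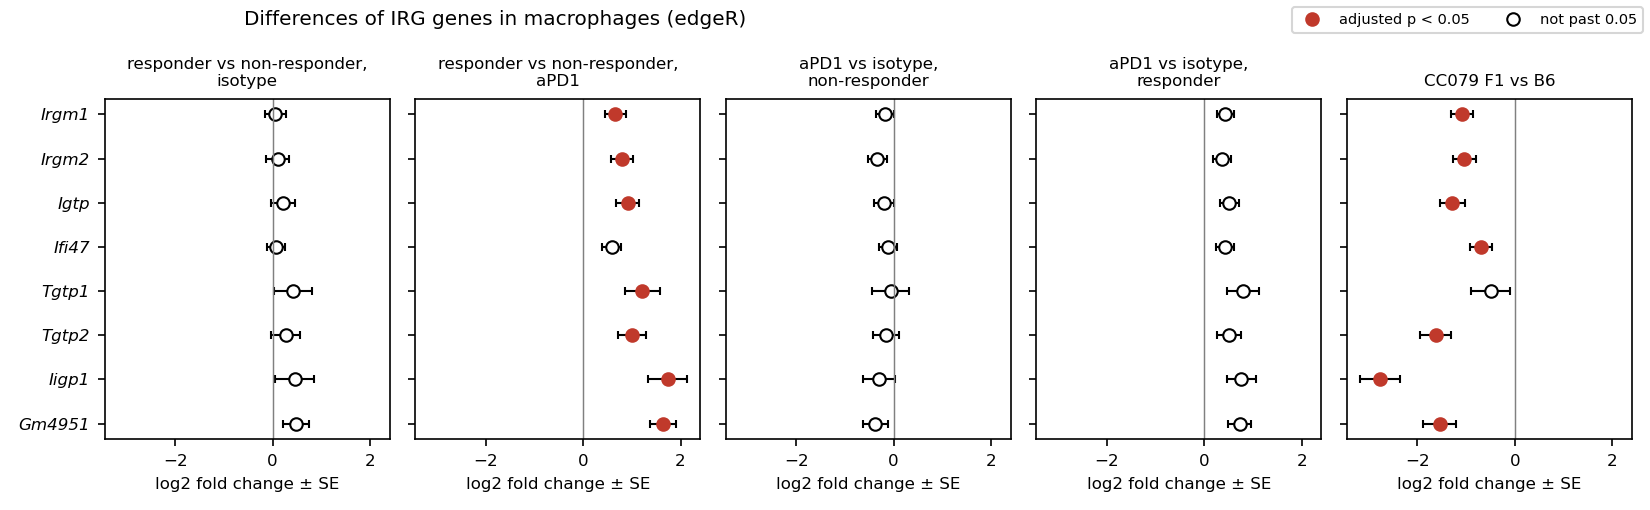
Log2 fold change with SE of each IRG gene in macrophages in 5 comparisons (panels), from edgeR, with filled points at an adjusted p under 0.05. The class difference in aPD1 tumors has 7 filled points and that in isotype tumors none, both aPD1 effects have none, and CC079 F1 against B6 has 7 on the lower side.

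Host strain was tested next, over all 48 tumors and 8 strains. All 8 members differed between strains (F-test, adjusted p from 1.6e-05 for Iigp1 to 0.014 for Ifi47), but so did 50.7% of the 13010 genes tested. With the pool as a block 6 members passed, without Tgtp1 (adjusted p = 0.082) and Ifi47 (0.086), where 12.8% of all genes passed. CC075 F1 and B6 macrophages had the highest and next highest means of Irgm1, Igtp, Iigp1 and Gm4951, and CC079 F1 macrophages the lowest of 6 members, all but Ifi47 and Tgtp1.

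CC079 F1 macrophages stood apart from those of B6. Iigp1 was at 20.9, 15.8 and 20.5 CPM in the isotype and 48.4, 38.6 and 18.03 CPM in the aPD1 tumors of CC079 F1 hosts. In B6 hosts it was at 73.3, 164.2 and 169.3 CPM in isotype and 202.9, 150.5 and 306.4 CPM in aPD1 tumors. Every B6 tumor stood above every CC079 F1 tumor, as for 3.3% of all genes, and the log2 fold change was -2.77 ± 0.42 (adjusted p = 5.8e-06). Tgtp2 (-1.63 ± 0.32, adjusted p = 0.00030), Gm4951 (-1.55 ± 0.34, 0.00083), Igtp (-1.28 ± 0.25, 0.00026), Irgm1 (-1.08 ± 0.22, 0.00048), Irgm2 (-1.03 ± 0.24, 0.0015) and Ifi47 (-0.69 ± 0.22, 0.021) were lower as well. That made 7 of 8 members, where 25.3% of all genes passed in either direction and 13.8% on the lower side.

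Tgtp1 was the exception, with 2.23 to 6.03 CPM in CC079 F1 and 3.94 to 6.36 CPM in B6 macrophages (-0.50 ± 0.40, adjusted p = 0.38). No pool held both B6 and CC079 F1 tumors, so with the pool as a block their difference is read through other strains. It then had an SE of 0.69 to 1.47 and no member passed (Iigp1 -3.42, adjusted p = 0.89), where 0.0615% of all genes did. Whether the pools or the strains carried the difference therefore cannot be told apart. Reads were aligned to the B6 reference. Whether reads of CC copies were counted as fully as those of B6 copies was not tested, for CC079 F1 or any other F1 hosts. Pools 1 to 6 against 7 to 12 were also entered as a term, a split by number that no label gives as a batch. With that term 6 members were past the threshold (Iigp1 -2.83), where 11.7% of all genes were. The lower levels above were measured in macrophages. In T/NK cells no member had a lower mean in CC079 F1 than in B6 hosts, but strains were not tested against each other there. Those means rest on few cells in some tumors (29 T/NK cells in CC079 F1 with aPD1 in pool 1) and on clusters whose levels differ.

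Other F1 strains differed less from B6. CC036 F1 macrophages had less Ifi47 (-0.83 ± 0.23, adjusted p = 0.019) and Tgtp1 (-1.47 ± 0.46, 0.047), 2 of 8 members where 6.13% of all genes passed (2.83% on the lower side). CC001 F1 macrophages had less Irgm1 (-0.67 ± 0.21, adjusted p = 0.022) and Irgm2 (-0.64 ± 0.22, 0.040), 2 of 8 where 15.7% passed (8.52% on the lower side). With the pool as a block none of these passed (CC036 F1 Ifi47 -0.61 ± 0.39 and Tgtp1 -1.38 ± 0.92, CC001 F1 Irgm1 -0.31 ± 0.67 and Irgm2 -0.090 ± 0.740). Of all genes 0.561% passed there for CC036 F1 and 0.0307% for CC001 F1 hosts. CC036 F1 and B6 tumors met in pool 8, and CC001 F1 and B6 tumors in none. No member passed for CC002, CC007, CC075 or CC080 F1 hosts, by edgeR or DESeq2, where 5.74%, 1.14%, 4.43% and 4.03% of all genes did. At an unadjusted p under 0.05 stood 7 of 8 members in CC080, with 18.03% of all genes, and 1 in CC002, with 21.5% of all genes. In CC036 all 8 members stood there, all lower than in B6, with 20.2% of all genes, and in CC001 4 did, with 31.4% of all genes. The CC007 F1 values include the tumor of 30 macrophages, in which Tgtp1, Tgtp2 and Gm4951 had no UMI. There a floor of 3 counts is 64.4 CPM, so these zeros say little.

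**Figure D4:**
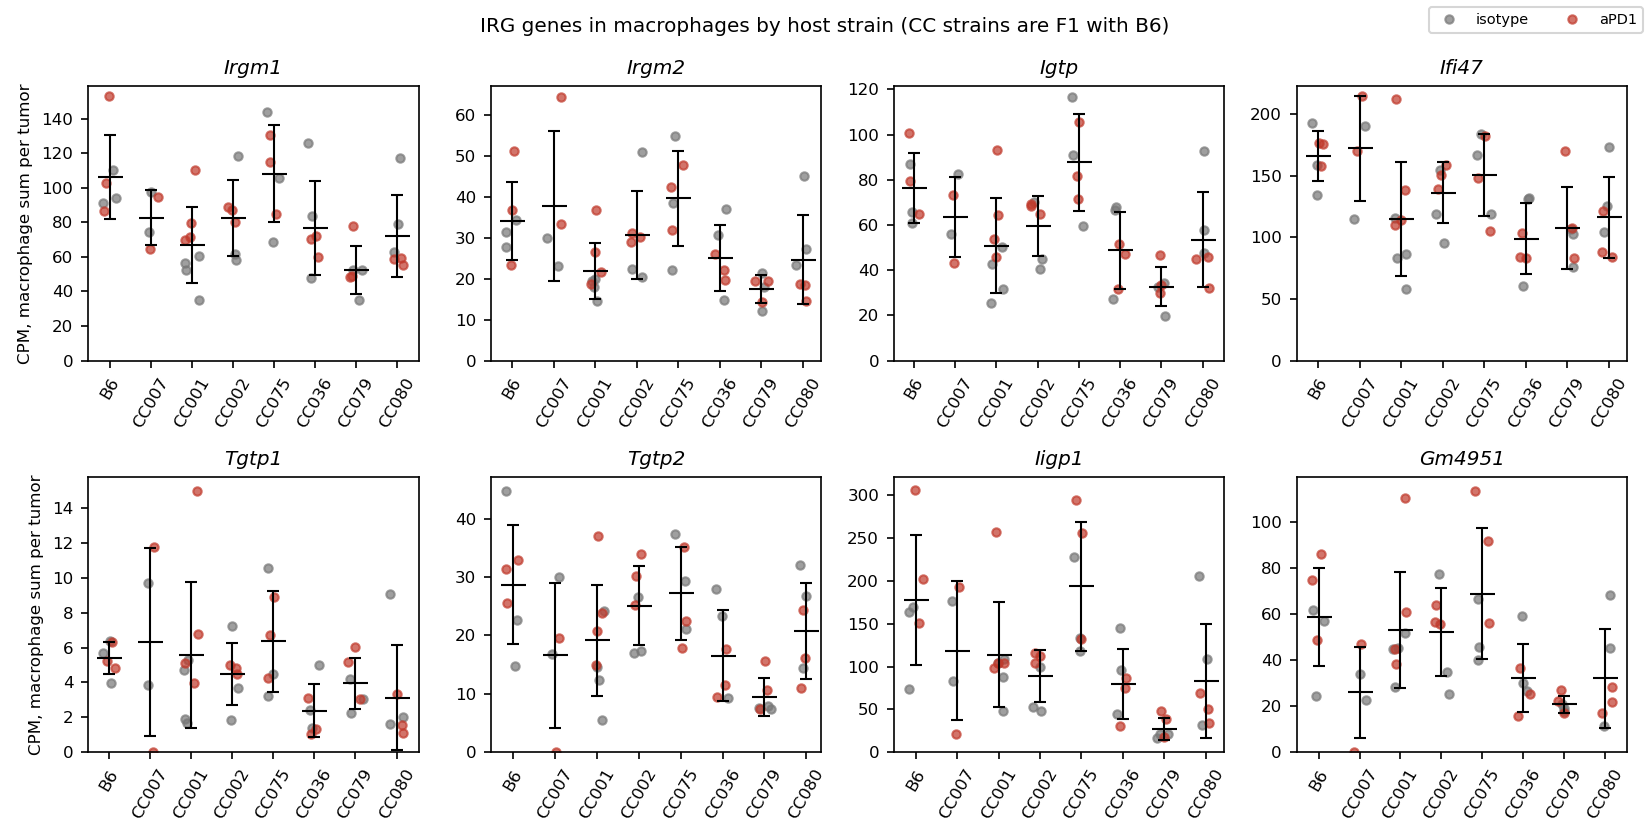
CPM of each IRG gene in the macrophage counts of each tumor by host strain (isotype grey, aPD1 red), with mean and SD as bars (n = 4 to 8). CC079 F1 has the lowest Iigp1 mean (tumors at 15.8 to 48.4 CPM) and CC075 F1 and B6 the highest. Single tumors of CC001, CC002, CC007, CC036 and CC080 F1 hosts fall within the CC079 F1 range. For Tgtp1 the lowest mean is that of CC036 F1 hosts.

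The balance of the near-identical pair Tgtp1 and Tgtp2 also varied between strains. Tgtp1 made up 29.3% of the pair's macrophage UMIs in CC079 F1 hosts (exact 95% binomial interval 26.02 to 32.8%) and 10.7% in CC080 F1 hosts (8.84 to 12.9%). Over tumors the share was 29.4% ± 4.0 (SD, n = 6, 23.3 to 34.7%) in CC079 F1 and 11.7% ± 5.6 (SD, n = 6, 5.75 to 21.99%) in CC080 F1 hosts, which do not overlap. CC036 F1 (12.1% ± 2.6), CC002 F1 (15.04% ± 4.1), B6 (16.9% ± 4.6), CC075 F1 (18.7% ± 5.6), CC001 F1 (21.5% ± 5.6) and CC007 F1 hosts (26.9% ± 9.7) filled the range between, each within the spread of its neighbours. Reads were aligned to the B6 reference, and how reads of CC copies of these genes divide between the pair was not tested.

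Members were then compared with the Ifng level of the tumor, taken over all its cells. Ifng ran from 0.741 to 6.02 CPM in CC079 F1 tumors and had medians of 85.2 CPM in B6 and 125.1 CPM in CC075 F1 tumors. With strain and treatment in the model, the macrophage level of 7 of 8 members rose with Ifng, where 12% of the 13010 genes passed (6.66% on the rising side). The slope, in log2 units per doubling of Ifng CPM + 1, was 0.36 ± 0.07 for Tgtp1 (adjusted p = 0.0011), 0.31 ± 0.05 for Gm4951 (0.00020), 0.30 ± 0.06 for Iigp1 (0.0021), 0.20 ± 0.04 for Irgm2 (0.0012) and 0.20 ± 0.03 for Irgm1 (0.00037). Igtp (0.17 ± 0.04, adjusted p = 0.0084) and Ifi47 (0.13 ± 0.04, 0.027) rose as well, and Tgtp2 did not pass (0.16 ± 0.06, 0.088). The slopes were not tested against each other. The median slope of all genes was 0.0066.

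These slopes passed with the pool as a block for the same 7 members, where 17% of all genes did. With Ifng taken over T/NK cells only, 4 members passed, with slopes of 0.19 (Irgm1), 0.38 (Tgtp1), 0.36 (Iigp1) and 0.32 (Gm4951), and 61 genes passed in all (0.469%). The slopes of the others were 0.21 (Igtp), 0.28 (Tgtp2), 0.15 (Ifi47) and 0.14 (Irgm2), and these had adjusted p from 0.053 to 0.39. Ifng itself, a gene of T/NK cells, rose in the macrophage sums too (0.63 ± 0.13, adjusted p = 0.0025). Macrophage UMIs are part of the tumor's Ifng level, so that slope is in part fixed by how the measure was made. The measure over T/NK cells leaves those UMIs out, with the members' slopes given above.

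**Figure D5:**
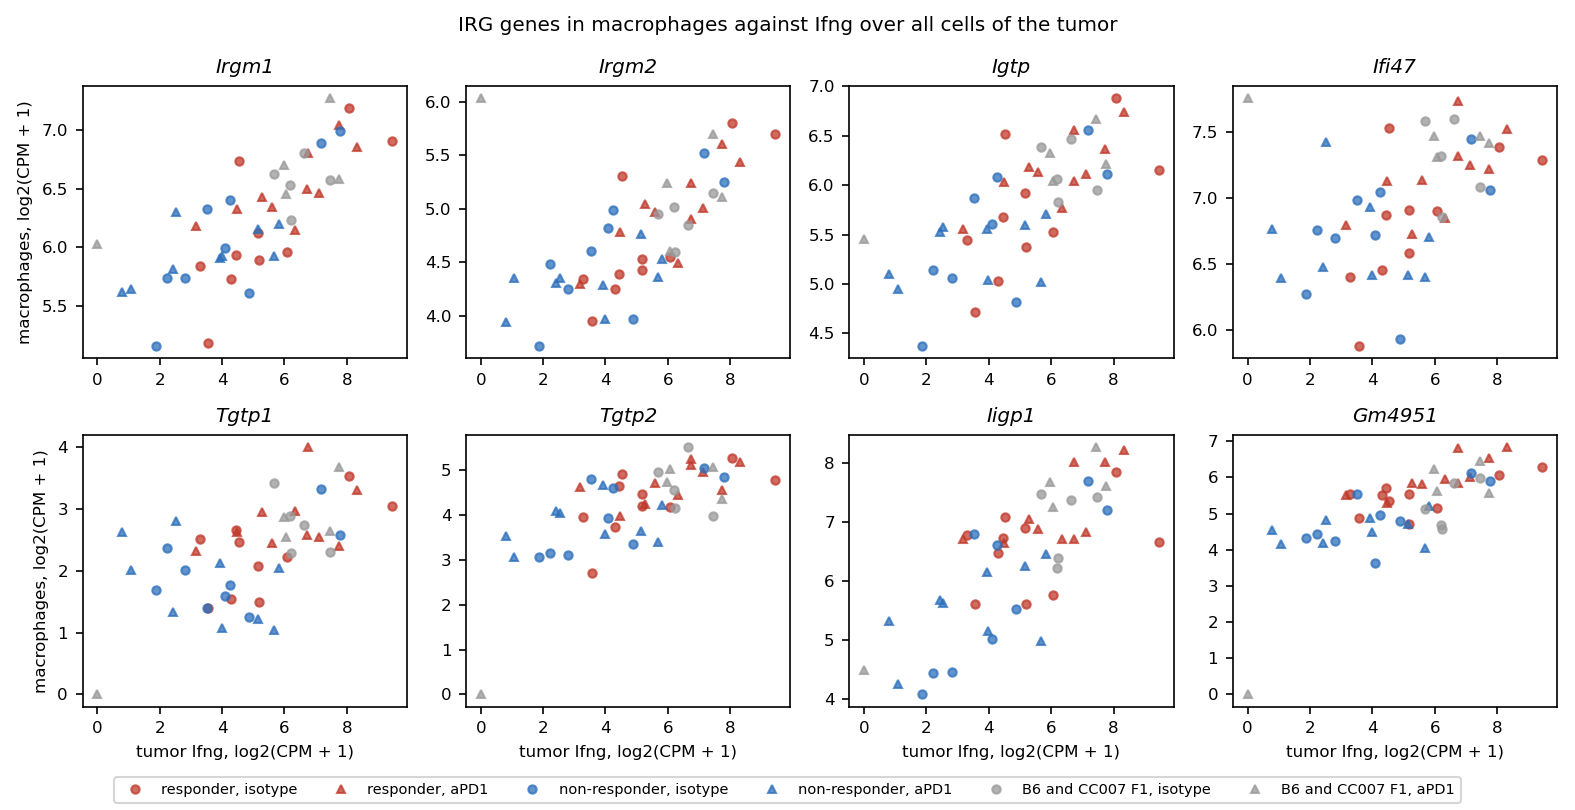
Level of each IRG gene in macrophages against the Ifng level of the whole tumor, both as log2(CPM + 1), one point per tumor, by class (color) and treatment (shape). Points rise to the right for all genes, with CC079 F1 tumors among the lowest Ifng values, and the point at an Ifng of 0 is the tumor of 53 cells.

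In T/NK cells no member differed between classes past the threshold. Of the 6 members with enough counts, 0 passed, where 2.31% of 7219 genes did (1060 at an unadjusted p under 0.05), and none had an unadjusted p under 0.05. Estimates ran from -0.30 ± 0.20 (Irgm2) to 0.18 ± 0.15 (Irgm1), and DESeq2 also called none. The T/NK sums mix clusters whose levels differ.

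Conventional DCs gave few calls. In cDC2 (36 tumors) all 8 members were above 0, with Gm4951 at 1.27 ± 0.33 (adjusted p = 0.068) and Iigp1 at 1.21 ± 0.34 (0.097), and none passed, where 0.599% of 7179 genes did (732 at an unadjusted p under 0.05). With the pool as a block both passed (Iigp1 1.62 ± 0.33, adjusted p = 0.0080, and Gm4951 1.48 ± 0.34, 0.020), where 0.989% of all genes did. In cDC1 (24 tumors) only Irgm1, Ifi47 and Iigp1 could be tested and none passed, where 0.43% of 4423 genes did (380 at an unadjusted p under 0.05). DESeq2 called no member in either cell type.

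Members resembled each other and a small set of further genes. Over 47 tumors with at least 100 macrophages, which share libraries and depth, Pearson correlations of log2(CPM + 1) between members ran from 0.62 to 0.94 (median 0.77 over 28 pairs). Among 7895 genes of at least 10 CPM, the 3 closest to each member included Gbp5 (r = 0.93) and Batf2 (0.92) for Irgm1, Gbp5 (0.91) and Samhd1 (0.90) for Irgm2, and Gbp5 (0.95) and Batf2 (0.94) for Igtp. For Ifi47 they included Gbp6 and Gbp2 (0.89 for both), and for Iigp1 they were Irf8, Tap1 and Fcgr4 (0.87 for each). For Gm4951 they were AW112010 (0.89), Il18bp (0.87) and B2m (0.86). For Tgtp2 they were Sectm1a (0.89), Batf2 and Ly6a (0.87 for both), and for Tgtp1 BC028528 (0.82), Smpdl3b (0.79) and Rnase6 (0.77). These correlations describe these tumors.

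Other genes of the family moved in the same direction in part. Of the 9 further IRG family genes, 8 could be tested and 3 were higher in responder macrophages, where 4.09% of all genes were: Gm4841 (1.83 ± 0.29, adjusted p = 4.3e-05), F830016B08Rik (1.21 ± 0.29, 0.0062) and 9930111J21Rik1 (0.72 ± 0.17, 0.0059). The guanylate-binding proteins, GTPases that act with IRGs at pathogen vacuoles, had 8 of 10 higher in the same comparison, among them Gbp2b (2.84 ± 0.56), Gbp10 (2.01 ± 0.45), Gbp4 (1.11 ± 0.26) and Gbp5 (0.86 ± 0.25), with a list median of 0.76. Several of these genes have near-identical copies, so their single values are uncertain.

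Lists of genes upstream and downstream were counted for the class difference, in which 6.57% of all genes passed over all tumors and 6.44% in aPD1 tumors. Of 13 genes of IFN-γ receptor signalling 1 passed over all tumors, Irf8 (0.34 ± 0.08, adjusted p = 0.0059), and 3 in aPD1 tumors. Of 10 autophagy conjugation genes, whose products IRGs need to load onto vacuoles, none passed in either, with medians of 0.053 and 0.14. None of 4 ubiquitin adaptors passed over all tumors and 1 did in aPD1 tumors. Of 10 type I interferon-stimulated genes tested 1 passed, Ifi44 (1.79 ± 0.37, adjusted p = 0.0018). On the Ifng slope 8 of the 13 IFN-γ signalling genes rose (6.66% of all genes did), and in CC079 F1 against B6 macrophages 11 of 13 were lower (13.8% of all genes), with a median of -0.88. The ubiquitin adaptors had 1 of 4 higher on the slope and 3 of 4 lower in CC079 F1 macrophages, while 0 of 10 autophagy genes passed in either. The CC079 F1 counts are from the fit without the pool. With the pool as a block 0.0615% of all genes passed for CC079 F1 against B6, and the lists were not counted there. Ifng in T/NK cells had a class estimate of 1.27 ± 0.40 and did not pass (adjusted p = 0.079).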

How the data were processed

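The authors deposited raw UMI counts per gene and cell from 10x 5′ libraries, with a cluster number, strain, treatment and hashtag for each cell. Per the study's methods, reads were aligned with Cell Ranger to GRCm38 (GENCODE vM23), cells with high mitochondrial or ribosomal shares were removed, and clusters were made in Seurat 5.0.1. No doublet caller was run here. Response classes are the study's, not the labels'.

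Counts were summed per tumor over the clusters of a cell type (at least 20 cells) and tested with edgeR 4.0.16 (R 4.3.3): TMM scaling, filterByExpr, quasi-likelihood F-test and Benjamini-Hochberg adjustment over all genes, called at 0.05. SE is the fold change over the root of F. DESeq2 1.42.0 was an alternative, and the code was tested on simulated data. Promoters are RefSeq's (GRCm38.p6), positions GENCODE vM21's. Genes named beside the 8 members were the 3 of highest correlation with each, and of each list up to 4 called with the largest change, with Ifng. One gene that this rule names is not reported here. Members, lists and tests were chosen with earlier results of these data known. No column of the tables was left unmapped. Intervals and floors cover counting error only.

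The 4 tumors of a pool share a library. Deviations from strain and treatment means correlated by 0.17 on average within a pool (72 pairs) and by -0.012 between pools. The main fits hold no pool term, so their p-values do not account for this. The pool entered as a block in alternative fits only.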

Additional observations from a re-analysis of the deposited data

Results flagged for a closer look

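The tumors below were picked out because 1 tumor lay far from the others of its group, by the gap to its nearest neighbour as a share of the range of the group (Dixon's test). Of 48 groups of macrophage values tested 5 were picked out, and chance alone picks out about 1 in 20. Ifi47 in non-responder aPD1 tumors was at 170.4 CPM in CC079 F1 in pool 1, against 121.3 CPM in the next tumor. Tgtp1 in non-responder isotype tumors was at 9.06 CPM in CC080 F1 in pool 4 (31 UMIs), against 5.00 CPM in the next. Tgtp1 in responder aPD1 tumors was at 15.03 CPM in CC001 F1 in pool 2 (94 UMIs), against 8.91 CPM in the next, and Iigp1 in the same tumor was at 257.4 CPM against 103.9 CPM in the next of the 4 CC001 F1 aPD1 tumors. Iigp1 in responder isotype tumors was at 227.9 CPM in CC075 F1 in pool 9, against 133.7 CPM in the next. The fits without pool 2 called 1 member over all tumors and 2 in aPD1 tumors, those without pool 9 called 1 and 5.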

How the results depend on the processing

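The count of members past the threshold in the class difference of macrophages, 4 of 8, was 2 with library size scaling, without a filter on low counts, without tumors under 500 cells, in pools 8 to 12 alone and in cluster 21 alone, 0 in pools 1 to 5 alone, in clusters 4 and 9 alone and in sums per strain, and 7 in cluster 26 alone. Leaving out each pool or strain gave 1 to 7, with 1 without pool 2, 9 or 11 or CC075, 2 without pool 5 or 10 or CC036 or CC079, and 7 without CC001. In aPD1 tumors the count of 7 became 3 without both tumors of the shared animal identifier and 1 to 8 over pools and strains left out (1 without CC075, 2 without pool 2 or 5, 3 without pool 10 or 11 or CC079, 4 without CC002, CC036 or CC080). The 11 differences of F1 strains from B6 became 0 with the pool as a block, which paired tumors of a pool, and 7 to 15 without single pools. The strain test gave 7 to 8 members without single pools. The slope on Ifng gave 4 members with Ifng over T/NK cells only, 5 to 8 without single pools, and, chosen after seeing the data, 5 with that Ifng and a term for early and late pools. In cDC2 2 members passed without a filter and with the block, and 0 to 3 with pools or strains left out. Isotype class differences, aPD1 effects, the interaction, T/NK cells and cDC1 gave 0 in every fit, also in T/NK cells without cluster 12, which was added after seeing the data. The block changed no other call count by over 1.5 times.

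The difference in the share of macrophages with a UMI, responder minus non-responder in aPD1 tumors, was 7.00 percentage points for Iigp1 at 1000 UMIs, 10.9 at 2000 and 13.9 without thinning, and for Ifi47 2.92, 6.16 and 5.51. Signs turned in cluster 9 alone for Irgm1 (-0.14), Ifi47 (-0.012) and Iigp1 (-0.11), in the isotype class difference of Irgm1 without tumors under 500 cells (-0.0093), pool 2 (-0.0030), pool 9 (-0.16), CC075 (-0.25) or CC079 (-0.20), in the aPD1 effect on Tgtp1 in non-responder strains without pool 4 (0.34), 8 (0.044) or 11 (0.014), CC036 (0.012) or CC080 (0.34), and in T/NK Irgm2 without CC079 (0.082). None of these was called, and with single pools or strains left out these ran from -0.25 to 0.35, from -0.63 to 0.34 and from -0.51 to 0.082. Counts of all genes called, 780 for class and 765 in aPD1 tumors, ran from 3 to 1099 and from 314 to 1398 over the alternatives, those for the Ifng slope (1555) from 61 to 5420, and for CC079 F1 against B6 (3293) from 8 to 4520. The cause of these changes was not tested, apart from fewer tumors or cells where some were left out.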
